A study of Mus musculus with 4 samples.

Results

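The 10 genes described here are Egr1, Egr2, Ier2, Ier3, Ier5, Nr4a1, Nr4a2, Nr4a3, Klf4 and Klf6. They were chosen by name, with earlier results of these data known, and all 10 were found once each among the 31053 gene rows of both libraries. The libraries hold RNA and open chromatin from the same nuclei, made with the 10x multiome kit from lungs of male mice on day 8 of bleomycin injury, a model in which the alveolar epithelium is damaged and then repaired. The library labelled CKO came from SftpcCreERT2; Rosa26mTmG; IP F/F mice and the library labelled Control from mice with the same SftpcCreERT2 and Rosa26mTmG alleles without IP F/F. In both, green fluorescent (GFP+) cells were sorted as alveolar type 2 (AT2) cells, so the reporter marks cells in which the tamoxifen-inducible Cre was active under the promoter of surfactant protein C. IP is commonly used for the receptor of prostaglandin I2, and Ptgir is its gene. The labels do not say how many mice went into a library. With 1 library per genotype, no test between genotypes exists, and every interval below covers counting error only, not variation between mice.

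Immediate early genes are transcribed within minutes of a signal from already present transcription factors such as SRF and CREB, and their short-lived RNAs make them a readout of recent signalling or stress. The set holds zinc finger activators and repressors (Egr1, Egr2), small response proteins (Ier2, Ier3, Ier5), orphan nuclear receptors (Nr4a1, Nr4a2, Nr4a3) and Krüppel-like zinc finger factors (Klf4, Klf6). Tissue dissociation and sorting are known to switch on many of them.

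The promoter windows used for the 3 Nr4a genes share a feature that the choice by name did not use, and they are shown with the window of Klf6, which lacks it. Each line gives the 250 bases before 1 RefSeq transcript start in GRCm38, 5′ to 3′ on the gene's strand, with every TGACG, or CGTCA where it lies on the other strand, in capitals. For Nr4a1 and Nr4a3 that start lies inside the gene, past its first RefSeq base at chr15:101253902 and chr4:48045078. TGACG is the core of the cAMP response element, the site of CREB family factors. The windows are chr15:101266596-101266845 on the plus strand for Nr4a1, chr2:57124004-57124253 on the minus strand for Nr4a2, chr4:48045055-48045304 on the plus strand for Nr4a3 and chr13:5861239-5861488 on the plus strand for Klf6.
Nr4a1: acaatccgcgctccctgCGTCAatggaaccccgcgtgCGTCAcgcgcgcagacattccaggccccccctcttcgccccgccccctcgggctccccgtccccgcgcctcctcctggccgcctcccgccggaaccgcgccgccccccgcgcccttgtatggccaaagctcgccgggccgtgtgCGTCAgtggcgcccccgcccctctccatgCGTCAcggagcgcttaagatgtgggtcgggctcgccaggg
Nr4a2: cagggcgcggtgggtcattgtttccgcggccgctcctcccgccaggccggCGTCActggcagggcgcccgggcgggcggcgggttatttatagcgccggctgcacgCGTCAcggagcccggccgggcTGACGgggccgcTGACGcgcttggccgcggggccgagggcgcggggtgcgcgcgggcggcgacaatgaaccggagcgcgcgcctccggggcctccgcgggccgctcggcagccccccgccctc
Nr4a3: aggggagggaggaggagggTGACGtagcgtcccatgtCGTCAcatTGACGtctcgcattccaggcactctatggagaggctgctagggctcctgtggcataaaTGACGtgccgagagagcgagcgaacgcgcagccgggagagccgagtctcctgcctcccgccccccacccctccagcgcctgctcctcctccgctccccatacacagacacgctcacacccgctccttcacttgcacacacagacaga
Klf6: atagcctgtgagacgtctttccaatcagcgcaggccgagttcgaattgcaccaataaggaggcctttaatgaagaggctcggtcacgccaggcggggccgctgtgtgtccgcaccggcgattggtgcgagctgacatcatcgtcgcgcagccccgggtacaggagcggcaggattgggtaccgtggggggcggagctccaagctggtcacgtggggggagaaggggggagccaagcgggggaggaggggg
Each Nr4a window held 4 copies. Of 32851 RefSeq promoter windows of this length, 17.8% held at least 1 copy and 0.137% held at least 4. The 4 windows were richer in G and C than most, at 74.4% for Nr4a1, 80.0% for Nr4a2, 63.6% for Nr4a3 and 64.8% for Klf6, against a median of 52.4% over all windows. In the full windows, which run 50 bases past the start, Klf4 held 1 TGACG and some of the Egr2 windows held 2, while the windows matched for Ier3, Ier5 and Klf6 held none. The longer TGACGTCA, of which TGACG is part, was in none of the 8 genes' windows that were matched, and in 1.79% of all promoters. These are matches of letters, not measured binding.

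The files held 10925 barcodes and 30818808 UMIs for CKO and 13569 barcodes and 48378328 UMIs for Control. The 2 libraries differed in makeup. After filters on depth and mitochondrial share, 3883 CKO nuclei and 2185 Control nuclei were kept, and 59.6% of CKO nuclei against 94.1% of Control nuclei fell into alveolar epithelial clusters. The rest carried markers of immune, endothelial, mesenchymal and ciliated cells, although both sorts were for AT2 cells. Of the kept barcodes, 17 occurred in both libraries. Ptgir gave 10 UMIs over all CKO barcodes and 2 over all Control barcodes, and 1 and 0 in alveolar nuclei, which is too few to check the label, and a 3′ tag need not lie in the deleted part. The alveolar nuclei comprised an AT2-like class (1213 CKO and 1486 Control nuclei), a transitional-like class (788 and 386) and cluster 4 (312 and 185), which led on AT1 genes but had more transitional than AT1 markers among its 10 leading genes and is named by number. The transitional-like class had 0 transitional markers among its own 10 leading genes. Of the AT2-like clusters, cluster 0 had 3 AT2 markers there, cluster 2 had 1 and cluster 3 had 0. These names therefore rest mainly on mean scores over the marker lists. Levels below are UMIs of a gene per 1000000 nuclear-encoded UMIs (CPM), summed over the nuclei of a class. The median gene stood 0.44 log2 units higher in CKO than in Control alveolar nuclei on this scale, which is given beside results it could turn.

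In alveolar nuclei, Egr1 had 68.4 CPM in CKO (454 UMIs, 95% Poisson interval 62.3 to 75.0) against 528.7 CPM in Control (3185 UMIs, 510.5 to 547.4). Egr1 encodes an activator that is among the quickest to follow growth factor and stress signals. It was 7.72-fold lower in CKO, a log2 ratio of -2.95 (95% interval -3.09 to -2.81), and this was the largest difference among the 10 genes. Egr2, a close relative known from myelinating glia and T cells, was near the detection limit, with 8 UMIs in CKO and 11 in Control, and no difference was detectable at this depth (log2 ratio -0.60, interval -2.12 to 0.85).

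**Figure D1:**
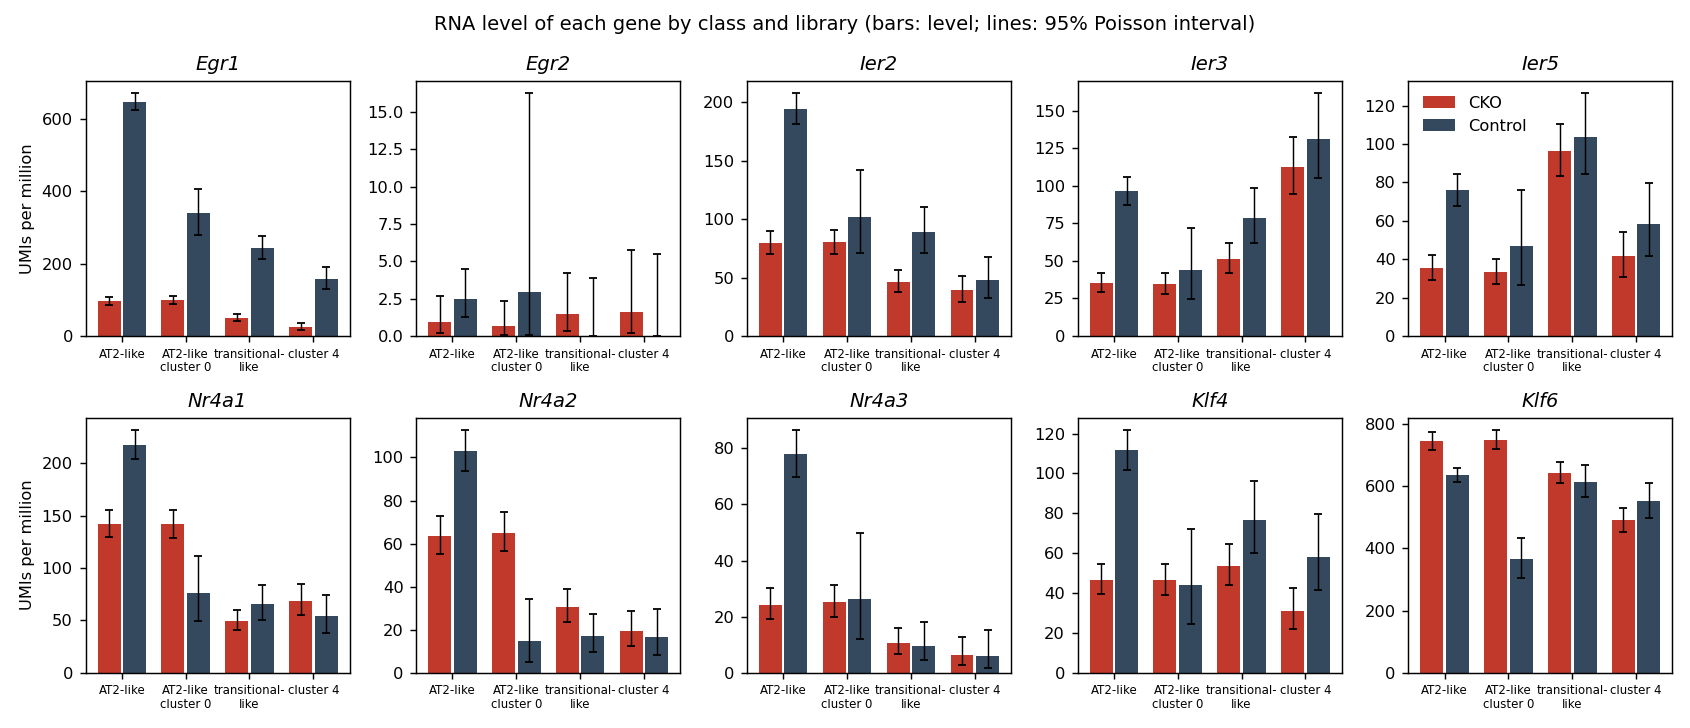
RNA level of each gene (CPM, linear axes that differ between panels) in 3 alveolar classes and in cluster 0, the AT2-like cluster that holds most CKO AT2-like nuclei, for CKO (red) and Control (dark blue), with 95% Poisson intervals. Egr1 is lower in CKO in every class shown, Nr4a1 and Nr4a2 are lower in CKO in the AT2-like class and higher in its cluster 0, and Klf6 is higher in CKO in both.

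The 3 Ier genes were lower in CKO alveolar nuclei to different degrees. Ier2, a nuclear response protein, had 61.7 CPM in CKO against 161.5 CPM in Control, a log2 ratio of -1.39 (-1.56 to -1.22). Ier3, a regulator of survival under stress, had 54.7 CPM in CKO against 97.4 CPM in Control, a log2 ratio of -0.83 (-1.03 to -0.64). Ier5, which is known to act on heat shock factor HSF1, had 55.6 CPM in CKO against 78.4 CPM in Control, a log2 ratio of -0.49 (-0.69 to -0.29) that came to 0.079 under a mitochondrial limit of 5%. Of these, Ier2 alone passed the 2-fold line used as a call here.

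The Nr4a receptors, which bind DNA without a known classical ligand, were also lower in CKO alveolar nuclei. Nr4a1 (Nur77) had 99.2 CPM in CKO against 175.3 CPM in Control, a log2 ratio of -0.82 (-0.96 to -0.68). Nr4a2 (Nurr1) stood at almost the same ratio, with 44.8 CPM in CKO against 79.7 CPM in Control and a log2 ratio of -0.83 (-1.05 to -0.62). Nr4a3 (Nor1) differed more, with 16.6 CPM in CKO against 59.1 CPM in Control and a log2 ratio of -1.83 (-2.16 to -1.52). Without AT2-like clusters 2 and 3, described below, all 3 were on the other side of 0, at 0.63 for Nr4a1, 1.46 for Nr4a2 and 0.58 for Nr4a3.

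The Klf genes went apart. Klf4, a factor of epithelial differentiation and quiescence, had 45.8 CPM in CKO against 100.1 CPM in Control, a log2 ratio of -1.13 (-1.33 to -0.93). Klf6, a widely expressed relative induced by injury, had 665 CPM in CKO against 624 CPM in Control, a log2 ratio of 0.093 (0.030 to 0.16) that turned to -0.35 when scaled to the median gene. Klf6 supplied 4413 of the 7385 member UMIs in CKO and 3758 of 11481 in Control, so a sum over the 10 genes is weighted by it. The summed log2 ratio was -0.78 with Klf6 and -1.52 without it.

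Of the 9 members with at least 20 UMIs in alveolar nuclei, 4 were past 2-fold lower in CKO and 0 were past 2-fold higher. Among all 13624 genes with as many UMIs, 3.13% were past 2-fold lower and 17.3% past 2-fold higher. Of the same 9 genes, 8 had log2 ratios under 0 and all 9 were under the median of all genes, which was 0.46, against a median of -0.83 over the members. Scaled to the median gene, 7 of the 9 were past 2-fold lower, all but Ier5 and Klf6, against 6.66% of all genes. Because the members were chosen with earlier results of these data known, these counts and those by class below are a description, not a test.

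The AT2-like class was made of 3 clusters that the libraries filled unequally. Cluster 0 held 1130 CKO and 105 Control nuclei, cluster 2 held 54 and 793, and cluster 3 held 29 and 588, so the class compares mostly different clusters, and a cluster filled by 1 library may be that library rather than a type. Cluster 2 was shallow (median 1124 UMIs in CKO and 1219 in Control). Over the whole class, Egr1 had 96.9 CPM in CKO against 647 CPM in Control, a log2 ratio of -2.74 (-2.91 to -2.57). Of the 9 members with at least 20 UMIs, 6 were past 2-fold lower in CKO, against 4.64% of all genes. The other 5 were Ier2 (-1.28), Ier3 (-1.46), Ier5 (-1.10), Nr4a3 (-1.69) and Klf4 (-1.26). Klf6 had 746 CPM in CKO against 637 CPM in Control, a log2 ratio of 0.23 (0.15 to 0.31) that turned to -0.18 when scaled to the median gene. Scaled in this way, 8 of the 9 were past 2-fold lower, all but Klf6, against 8.18% of all genes.

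Within cluster 0 alone, a comparison added after the clusters had been seen, most members no longer stood below Control beyond their counting intervals. Egr1 was still lower, at 99.2 CPM in CKO against 339 CPM in Control (116 UMIs), a log2 ratio of -1.77 (-2.08 to -1.45). It was the 1 member of 9 past 2-fold lower, where 2.83% of all genes were, and also the 1 of 9 when scaled to the median gene, where 4.91% were. The log2 ratios of Ier2 (-0.35), Ier3 (-0.35), Ier5 (-0.49), Nr4a3 (-0.065) and Klf4 (0.083) all had intervals that held 0. They rested on 35, 15, 16, 9 and 15 Control UMIs in the same order. The intervals of Ier3 (-1.13 to 0.54), Ier5 (-1.26 to 0.37) and Nr4a3 (-1.06 to 1.12) also held a 2-fold lower level. With scaling to the median gene, Ier2 was at -0.59, with an interval that then lay under 0. Ier3 at -0.59 and Ier5 at -0.74 still had intervals that held 0. Klf4 was on the other side of 0, at -0.16, when scaled to the median gene.

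In cluster 0, 2 of the 9 members were past 2-fold higher in CKO, Klf6 and Nr4a2, against 18.9% of all genes. Klf6 had 751 CPM in CKO against 365 CPM in Control, a log2 ratio of 1.04 (0.78 to 1.31) that was no longer past 2-fold, at 0.80, when scaled to the median gene. Nr4a2 had 65.1 CPM in CKO (202 UMIs) against 14.6 CPM in Control (5 UMIs), a log2 ratio of 2.16 (0.91 to 3.79), or 1.91 when scaled. Nr4a1 had 142 CPM in CKO against 75.9 CPM in Control, a log2 ratio of 0.90 (0.33 to 1.53). Both Nr4a genes thus had opposite signs in cluster 0 and in the whole class, where Nr4a1 was at -0.62 (-0.78 to -0.46) and Nr4a2 at -0.70 (-0.94 to -0.46).

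The Control nuclei of the 3 clusters differed among themselves. Those of cluster 3 had the highest levels of the 3 clusters, with 701 CPM of Egr1, 219 CPM of Ier2, 257 CPM of Nr4a1, 118 CPM of Nr4a2, 88.3 CPM of Nr4a3 and 133 CPM of Klf4. In Control nuclei of cluster 2, Egr1 had 594 CPM and Nr4a2 89.8 CPM. The 54 CKO nuclei of cluster 2 gave 2 UMIs of Egr1, or 30.8 CPM with an interval of 3.73 to 111. Egr1 was therefore lower in CKO in both AT2-like clusters with at least 50 nuclei of that library.

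**Figure D2:**
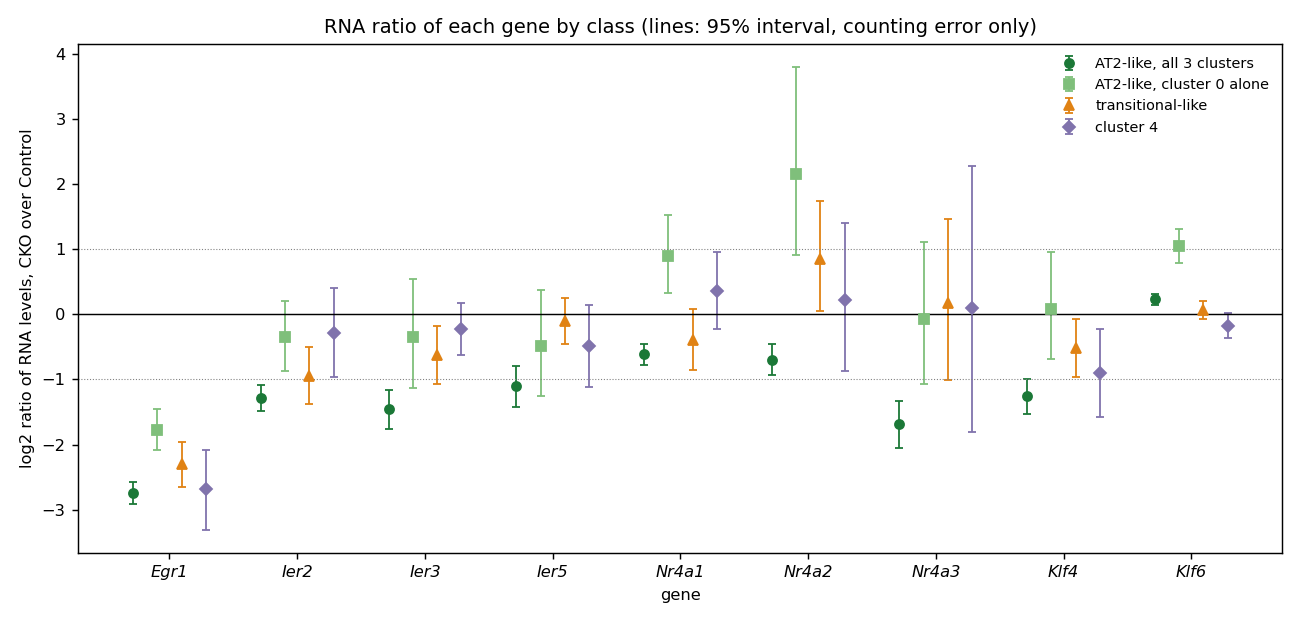
Log2 ratio of RNA levels, CKO over Control, for the 9 genes other than Egr2, by class, with 95% intervals (counting error only) and dotted lines at 2-fold. Nr4a3 in cluster 4 rests on 8 CKO and 4 Control UMIs, under the 20 asked for in a call. Egr1 lies below -1 in all 4 sets of nuclei, from -2.74 in the AT2-like class to -1.77 in cluster 0, while the ratios of most other genes in cluster 0 lie near or above 0.

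In transitional-like nuclei, Egr1 had 49.7 CPM in CKO against 244 CPM in Control, a log2 ratio of -2.29 (-2.64 to -1.95). It was the 1 of 9 members past 2-fold lower, where 1.76% of all genes were, and 0 were past 2-fold higher, where 11.8% were. Scaled to the median gene, 2 of 9 were past 2-fold lower, Egr1 and Ier2, against 3.18%. The Egr1 difference ended among the 100 CKO and 52 Control transitional-like nuclei found under a mitochondrial limit of 5%, where the log2 ratio was -0.028. That cluster may mix lineages, since C7 and Nox4 led in it and in the fibroblast-like and mural-like cluster. CKO nuclei of the latter had 881 CPM of Egr1, and their part in the ratio under the 5% limit was not tested. Ier2 (-0.95), Ier3 (-0.62) and Klf4 (-0.52) were lower with intervals under 0. Unscaled, Ier5, Nr4a1, Nr4a3 and Klf6 had intervals that held 0. With scaling to the median gene, Nr4a1 was at -0.62 and Klf6 at -0.16, with intervals that then lay under 0. Ier5 at -0.33 and Nr4a3 at -0.059 still had intervals that held 0. Nr4a2 was higher, with 30.4 CPM in CKO (63 UMIs) against 16.8 CPM in Control (16 UMIs), a log2 ratio of 0.85 (0.045 to 1.75). Scaled to the median gene it was 0.63, with an interval that then held 0, and it lay below 0 in 3 of 12 alternatives, which changed the mitochondrial limit or the filters, down to -1.05.

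In cluster 4, Egr1 had 24.7 CPM in CKO (31 UMIs) against 158 CPM in Control (106 UMIs), a log2 ratio of -2.68 (-3.31 to -2.09). It was the 1 of 8 measured members past 2-fold lower, where 2.95% of all genes were, and 0 were past 2-fold higher, where 13% were. Scaled to the median gene, Egr1 and Klf4 made 2 of 8, against 3.9%. Klf4 had 31.1 CPM in CKO against 58.2 CPM in Control, a log2 ratio of -0.91 (-1.58 to -0.23). Ier3 was at its highest alveolar level in both libraries, with 112 CPM in CKO and 131 CPM in Control, and its ratio of -0.23 had an interval that held 0.

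The order of classes differed between genes. In Control, AT2-like nuclei were highest for Egr1 (647 CPM), ahead of transitional-like nuclei (244 CPM) and cluster 4 (158 CPM), with intervals that did not overlap between these. Nr4a1 in Control had 218 CPM in AT2-like, 65.1 CPM in transitional-like and 53.8 CPM in cluster 4 nuclei, of which the last 2 did not differ beyond their intervals. Nr4a3 had 77.9, 9.45 and 5.97 CPM in the same order. Ier5 stood higher in transitional-like than in AT2-like nuclei, by 96.4 to 35.4 CPM in CKO and by 104 to 75.9 CPM in Control, with overlapping intervals in Control. Among the alveolar classes Ier3 was highest in cluster 4, with overlapping intervals in Control, and Klf6 varied little, between 490 and 746 CPM over the CKO classes and between 552 and 637 CPM over the Control classes.

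Outside the epithelium, levels could be set by class in CKO for the most part, since the Control library held 128 such nuclei. In CKO, over classes with at least 50 nuclei, Egr1 was highest in the 58 fibroblast-like and mural-like nuclei (881 CPM) and at 24.7 CPM in cluster 4, which did not differ beyond their intervals from the next class, B lineage-like nuclei (38.3 CPM). The same nuclei led for Nr4a1 (351 CPM) and Nr4a3 (292 CPM) beyond the next class, and for Nr4a2 (135 CPM) within its interval. Klf4 was highest in endothelial-like nuclei (284 CPM), and the Ier genes were highest in neutrophil-like nuclei, at 185 CPM for Ier2, 218 CPM for Ier3 and 153 CPM for Ier5, none of them beyond the interval of the next class. Egr2 reached 26.6 CPM in macrophage-like nuclei, against 0.908 CPM in CKO AT2-like nuclei.

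T-like and NK-like nuclei were the 1 such class with at least 50 nuclei in both libraries (350 CKO and 61 Control). Egr1 was lower in CKO there too, with 79.4 CPM (64 UMIs) in CKO against 254 CPM (33 UMIs) in Control. Nr4a2 had 76.9 CPM in CKO against 400 CPM in Control and Nr4a3 37.2 CPM in CKO against 200 CPM in Control, both higher in Control than in its AT2-like nuclei. Sftpb, a surfactant gene of AT2 cells, was read at 1774 CPM in CKO and 2172 CPM in Control nuclei of this class, against 5235 CPM in CKO and 2917 CPM in Control AT2-like nuclei. RNA of AT2 cells was thus read in nuclei of another class in both libraries, and its part in the levels of the 10 genes was not tested.

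The libraries differed in mitochondrial share, with a median of 16.6% over all CKO barcodes and 24.2% over all Control barcodes. Gm42418, a transcript that overlaps ribosomal RNA, took 6.06% of CKO and 13.3% of Control alveolar UMIs. With the total taken without it, AY036118 and Malat1, the summed log2 ratio of the 10 genes was -0.93 in place of -0.78, and its part beyond the total was not tested. In AT2-like barcodes clustered without the mitochondrial limit, Egr1 lay between 69.5 and 102 CPM over 5 bins of mitochondrial share in CKO and between 595 and 753 CPM in Control, so the libraries did not overlap in any bin. The libraries filled these AT2-like clusters unequally too. The largest held 2345 CKO and 183 Control barcodes and the next 111 and 2048, so the comparison is mostly between different clusters. Ier2 lay between 78.2 and 126 CPM in CKO and between 155 and 225 CPM in Control. Nr4a1 was lower in CKO in all 5 bins, though its intervals overlapped between 5% and 10%. Klf6 was lowest in the bin of at least 40% in both libraries, at 452 CPM in CKO and 415 CPM in Control.

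**Figure D3:**
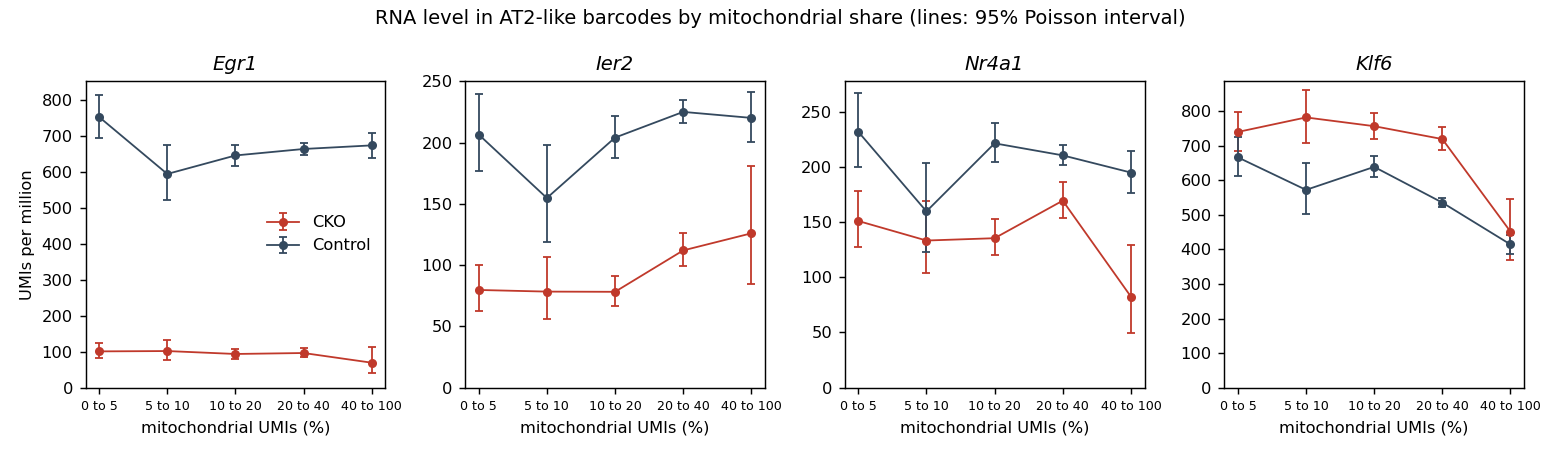
RNA level (CPM) of Egr1, Ier2, Nr4a1 and Klf6 in AT2-like barcodes by bin of mitochondrial share, for CKO (red) and Control (dark blue), with 95% Poisson intervals. Egr1 stays between 69.5 and 102 CPM in CKO and between 595 and 753 CPM in Control over all 5 bins.

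To compare shares of nuclei, each nucleus was thinned to 1000 UMIs, which left out 99 CKO and 331 Control AT2-like nuclei as too shallow. At that depth 6.73% of CKO AT2-like nuclei (95% Clopper-Pearson interval 5.33% to 8.37%) had an Egr1 UMI, against 36.5% of Control AT2-like nuclei (33.8% to 39.4%). Unthinned, the shares were 13.3% in CKO and 51.0% in Control. In T-like and NK-like nuclei of CKO, with a median of 1759 UMIs, 5.28% (2.92% to 8.71%) had an Egr1 UMI after thinning, which overlaps the CKO AT2-like share. T cells can express Egr1 themselves, so this is not a class known to lack it.

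An Ier2 UMI was in 7.36% of CKO and 16.4% of Control AT2-like nuclei, a Klf4 UMI in 3.14% of CKO and 8.05% of Control, and a Klf6 UMI in 44.8% of CKO and 37.9% of Control. An Ier5 UMI was in 3.68% of CKO (2.65% to 4.96%) and 4.85% of Control AT2-like nuclei (3.68% to 6.25%), which overlap, although its level was past 2-fold lower in CKO. Leaving Klf6 out, 65.9% of CKO AT2-like nuclei had no UMI of the other 9 genes, against 33.7% of Control. At least 3 of the 9 were detected in 1.80% of CKO (1.10% to 2.76%) and 8.74% of Control AT2-like nuclei (7.18% to 10.5%). In cluster 0 alone the shares with no UMI of the 9 genes overlapped. They were 65.9% of CKO nuclei (63.0% to 68.8%) and 59.2% of the 103 Control nuclei (49.1% to 68.8%). For Egr1 the shares with a UMI in cluster 0 did not overlap, at 7.01% in CKO (5.54% to 8.72%) and 19.4% in Control (12.3% to 28.4%).

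**Figure D4:**
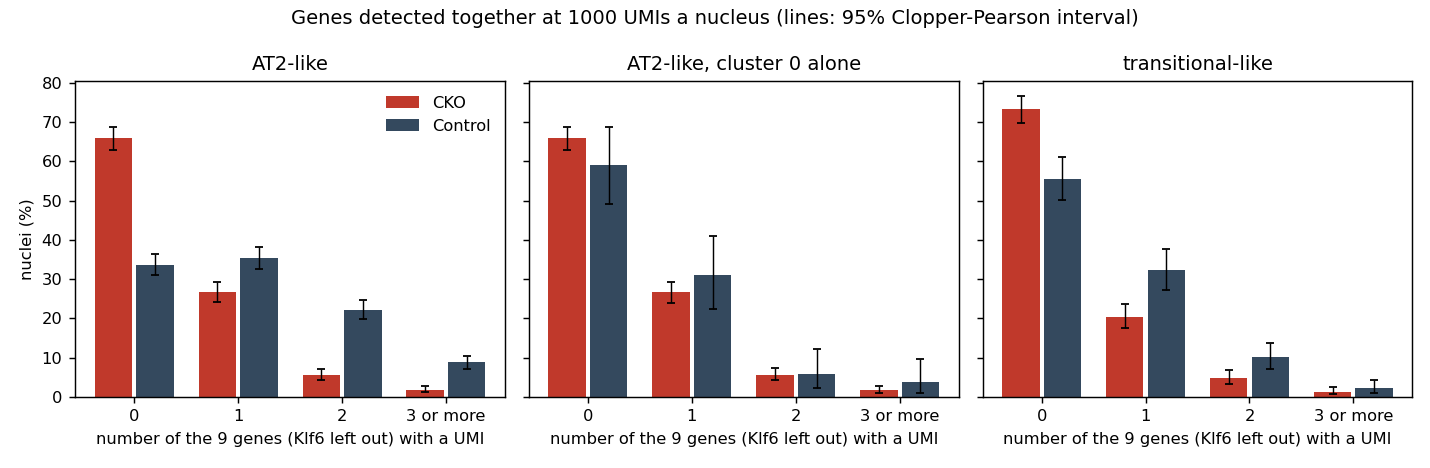
Share of nuclei (%) with UMIs of 0, 1, 2 or at least 3 of the 9 genes other than Klf6, each nucleus thinned to 1000 UMIs, for CKO (red) and Control (dark blue), with 95% Clopper-Pearson intervals. In the AT2-like class 65.9% of CKO and 33.7% of Control nuclei have none, while in cluster 0 alone the 2 libraries overlap in every bar.

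Members were found in the same nuclei to unequal degrees. Among thinned CKO alveolar nuclei, Nr4a1 was detected in 28.1% of the 114 with an Egr1 UMI (20.1% to 37.3%) and in 6.71% of the 1983 without (5.65% to 7.90%). In Control the shares were closer, with Nr4a1 in 17.0% of the 494 nuclei with an Egr1 UMI (13.8% to 20.6%) and in 12.5% of the 1165 without (10.7% to 14.6%). Ier2 went with Egr1 in both libraries, in 18.4% and 5.45% of CKO nuclei with and without it, and in 20.2% and 11.4% of Control nuclei. For Ier3 no such difference was detectable at this depth. Its shares were 7.02% (3.08% to 13.4%, on 8 nuclei) and 4.79% (3.89% to 5.82%) in CKO. In Control they were 9.51% (7.07% to 12.5%) and 9.44% (7.82% to 11.3%). These shares pool the alveolar classes, which differ in their levels. Within AT2-like nuclei with and without an Egr1 UMI, Nr4a1 was in 34.7% and 9.43% in CKO, with intervals apart. In Control AT2-like nuclei it was in 18.7% (15.1% to 22.8%) and 17.2% (14.5% to 20.1%), which overlap. Ier2 stayed apart in this class, at 17.3% and 6.64% in CKO and 20.9% and 13.8% in Control.

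Open chromatin around the genes was compared in peaks that overlapped between the libraries, as counts per 1000000 in all shared peaks, also written CPM. Within 10000 bases of the gene starts lay 51 CKO and 48 Control peaks, which formed 43 shared regions, and 20 of these were within 1000 bases of a start or between the first and last start of a gene and are called promoter regions. Another 8 CKO and 5 Control peaks had no partner in the other library, 4 and 1 of them near Nr4a1. The 4 windows printed above all lay inside promoter regions. The region over the Nr4a1 window, chr15:101266261-101267170, had 63.6 CPM in CKO and 66.5 in Control (log2 ratio -0.064, -0.29 to 0.16). The region over the Nr4a3 window, chr4:48044566-48045537, had 55.7 in CKO and 65.5 in Control (-0.23, -0.47 to 0.00092).

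Summed over the 20 promoter regions, alveolar nuclei had 739 CPM in CKO and 858 in Control, a log2 ratio of -0.22 (-0.28 to -0.15), beside -0.78 for the summed RNA. The promoter regions of Egr1 were at 119 in CKO and 145 in Control, a log2 ratio of -0.29 (-0.45 to -0.13), beside an RNA log2 ratio of -2.95. Klf4 was at -0.41 (-0.62 to -0.20) and Nr4a2 at -0.32 (-0.50 to -0.14). Ier5 was at -0.50 (-0.78 to -0.22), as far from 0 as its RNA at -0.49. Klf6 was at -0.11 (-0.32 to 0.11), beside 0.093 for its RNA. The intervals of Egr2, Ier2, Ier3, Nr4a1, Nr4a3 and Klf6 held 0.

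None of the 20 promoter regions was past 2-fold in alveolar nuclei, where 1.77% of 24853 promoter regions were past 2-fold lower and 7.23% past 2-fold higher. The median over all promoter regions was -0.0034, and over the members' regions -0.14. Of the 23 other regions near the genes, 1 was past 2-fold lower and 1 past 2-fold higher. Among 67718 regions away from every gene start, 2.19% were lower and 17.9% higher. The 23 were set apart by the members' own starts alone, so some may lie at the start of a neighbouring gene. Both of the regions past 2-fold lay near Ier2. The one at chr8:84670096-84671094 had 5.07 CPM in CKO and 11.95 in Control, and the one at chr8:84667797-84668706 had 7.64 in CKO and 2.72 in Control. In AT2-like nuclei, 0 of 20 promoter regions were past 2-fold either way, against 2.98% lower and 7.44% higher of all promoter regions. Of 22 other regions there, set apart in the same way, 2 were past 2-fold lower and 1 higher. Among regions away from every gene start, 3.52% were lower and 19.3% higher. The summed promoter ratio was -0.18 in AT2-like, -0.22 in transitional-like, -0.23 in cluster 4 and -0.16 in cluster 0 nuclei, where its interval held 0 (-0.37 to 0.052). Within cluster 0 the promoter regions of single genes ran from -0.90 for Ier3 (-1.68 to -0.018, 31 Control peak counts) to 0.98 for Nr4a3 (-0.064 to 2.26, 15 Control peak counts). Those of Klf6 were at -0.78 (-1.36 to -0.15) there, beside 1.04 for its RNA.

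**Figure D5:**
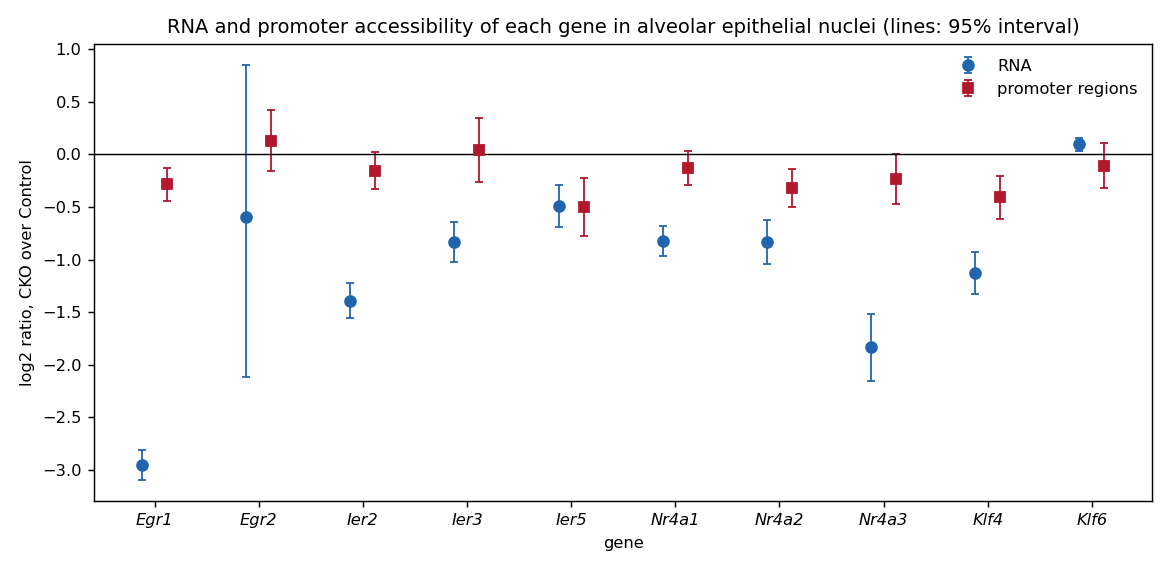
Log2 ratio, CKO over Control, of RNA (blue) and of promoter regions (red) for each gene in alveolar epithelial nuclei, with 95% intervals. Egr1 stands at -2.95 for RNA and -0.29 for its promoter regions, and all promoter ratios lie between -0.50 and 0.13.

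Promoter accessibility was also compared within a library between AT2-like nuclei with and without a UMI of the gene. For Egr1 the promoter level was 118 CPM with and 123 without a UMI in CKO, and 145 with and 151 without in Control. The interval of the log2 ratio lay off 0 for 2 of 18 pairs, Nr4a2 in Control (0.49, 0.10 to 0.87) and Klf6 in CKO (-0.58, -0.998 to -0.15). The other intervals held 0, and some were wide, as for Ier3 in CKO (-1.52 to 0.70), so a difference past 2-fold would not have been detectable there. These nuclei differ in depth as well as in the gene.

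Of 40 other immediate early genes, 36 had at least 20 UMIs in alveolar nuclei, and 5 were past 2-fold lower and 1 past 2-fold higher in CKO, against 3.13% and 17.3% of all genes. Their median log2 ratio was -0.15, against 0.46 over all genes. The lowest were Nfkbia, an NF-kappaB inhibitor (121 CPM in CKO and 379 CPM in Control), and the AP-1 subunits Fosb (391 CPM in CKO and 1128 CPM in Control) and Junb (191 CPM in CKO and 445 CPM in Control). The highest were Gadd45g, a growth arrest gene (42.8 CPM in CKO and 16.3 CPM in Control), Socs3, a feedback inhibitor of cytokine receptors (59.3 CPM in CKO and 31.9 CPM in Control), and the factor Cebpd (103 CPM in CKO and 56.9 CPM in Control). In cluster 0, 0 of 33 measured were past 2-fold lower and 9 past 2-fold higher, against 2.83% and 18.9% of all genes, and their median was 0.32 against 0.28 over all genes.

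Of 29 upstream factors and regulators, 27 had at least 20 UMIs in alveolar nuclei. None of these was past 2-fold there, and their median log2 ratio was 0.31, against 0.46 over all genes. Within classes, 1 of 27 was past 2-fold higher in AT2-like nuclei, against 17.1% of all genes, 3 of 25 in transitional-like nuclei, against 11.8%, and 5 of 24 in cluster 0, against 18.9%. In cluster 4, 2 of 23 were past 2-fold lower and 1 higher, against 2.95% and 13%. In alveolar nuclei Srf, the serum response factor, had 18.5 CPM in CKO and 23.2 CPM in Control. The CREB coactivator Crtc1 had 12.1 CPM in CKO and 18.3 CPM in Control, and Rps6ka5, a kinase of CREB and histone H3, had 32.9 CPM in CKO and 42.2 CPM in Control. At the other end stood the kinases Mapk3 (35.3 CPM in CKO and 19.6 CPM in Control) and Mapk14 (173 CPM in CKO and 97.3 CPM in Control) and the SRF partner Elk3 (81.3 CPM in CKO and 42.2 CPM in Control). Among 9 other Klf genes none was past 2-fold in alveolar nuclei, with a median of 0.74, from Klf11 at -0.43 to Klf3 at 0.92. In AT2-like nuclei 1 of the 9 was past 2-fold higher, against 17.1% of all genes.

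Likeness was measured over 14 combinations of class and library as Pearson's r between log2 levels, which share library and depth and are a description. Against the mean of the other members, Ier2 (0.91), Nr4a3 (0.84), Nr4a1 (0.80) and Egr1 (0.78) were most alike, and Klf6 (0.10) and Ier5 (0.073) least. Of 10300 other genes, those nearest to the mean of the 10 were Nfkbiz (0.88), Atp6ap2 (0.85), March3 (0.84), Ifi27l2a (0.83) and Zfp36 (0.82).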

How the data were processed

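The files are raw matrices of 2 libraries from 4 samples, each with UMI counts of genes and counts of peaks of the same nuclei. The deposited counts are raw and come from Cell Ranger ARC 2.0.1, per the file headers. Seurat 4.1.0 and Signac 1.6.0 are named in the submitters' processing notes without a step. Peaks were listed per library, and most peak values are even (84.6% in CKO, 81.6% in Control), so intervals on peaks use halved counts. Gene starts match GRCm38. The calling of cells is not given in the sources used here.

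The filter on nuclei asked for 300 genes or more, 500 to 25000 UMIs, a mitochondrial share under 20%, and peak counts between 1000 and 100000. Both libraries were clustered together without integration in scanpy 1.11.5 (2000 variable genes without immediate early genes, 30 components, 15 neighbours, Leiden resolution 0.6). Each cluster took the name of the marker list with the highest mean log2 fold of CPM plus 10 over the equally weighted mean of the other clusters (score at least 0.3, at least 3 detected markers). The equal weighting was chosen after a first naming had been seen. Scrublet called 1 CKO and 13 Control nuclei as doublets, far under the expected 8%, so doublets were in effect not removed. A ratio was made for classes with at least 100 nuclei in each library and a level with at least 50. Log2 ratios are CKO over Control with exact conditional-binomial intervals, and a gene was called at a 2-fold difference with at least 20 UMIs in both libraries together. With 1 library per genotype no p-value was computed. The interval code was tested on simulated data.

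The members and lists were chosen with earlier results of these data known. The text names all 10 members, the 3 lowest and 3 highest genes of each other list in alveolar nuclei, the 5 genes most alike, and those singled out for a library's quality (Ptgir, Sftpb). Sequences are from RefSeq promoters of GRCm38.p6, of which 8 members' entries were used. Alternatives were other filters, clusterings, scalings, depths and weights of nuclei, and other peak windows and overlaps.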

Additional observations from a re-analysis of the deposited data

Results flagged for a closer look

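Nr4a2 differed in direction between classes under the same contrast. Its log2 ratio of CKO over Control was -0.70 in AT2-like nuclei and 0.85 in transitional-like nuclei, with intervals on opposite sides of 0. In transitional-like nuclei the sign was not stable. Scaled to the median gene the ratio was 0.63 with an interval that held 0, and it fell below 0 in 3 of 12 alternatives, at -1.05 under a mitochondrial limit of 5%, -0.17 without one and -0.43 with a filter on UMIs alone. The transitional-like cluster under the 5% limit may mix lineages, since C7 and Nox4 led in it and in the fibroblast-like and mural-like cluster. The difference between the classes was not tested, since each genotype has 1 library. In the AT2-like class the comparison is mostly between different clusters, and in cluster 0 alone the ratio was 2.16 on 5 Control UMIs.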

How the results depend on the processing

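Each genotype has 1 library, so no replicate could be left out. No paired analysis was possible because the 2 genotypes have 1 library each and no test was made. Egr1 was lower in CKO under all 15 alternatives in alveolar nuclei, between -3.39 and -1.75. For the summed log2 ratio in alveolar nuclei (-0.78), values left the counting interval without the mitochondrial limit (-0.73), with median-of-ratios scaling (-1.22), with the total taken without Gm42418, AY036118 and Malat1 (-0.93), with nuclei weighted equally (-0.62), thinned to 1000 UMIs (-0.64) and with Control weighted to the class makeup of CKO (-0.63). In AT2-like nuclei (-0.77) they did so without the mitochondrial limit (-0.66), under a limit of 5% (-0.95), and with median-of-ratios scaling (-1.18), the reduced total (-0.93), equal weights (-0.61) and thinning (-0.66). Alternatives chosen after seeing the data were leaving out cluster 2 (-0.84 in AT2-like nuclei), leaving out clusters 2 and 3 (-0.090 in alveolar nuclei), cluster 0 alone (0.27) and leaving out Klf6 (-1.52 and -1.54). The sum without Klf6 was -0.40 (-0.60 to -0.20) in cluster 0, where Egr1 gave 116 of its 238 Control UMIs. That sum was below 0 in all 15 alternatives in alveolar nuclei, up to -0.50, and in all 14 in AT2-like nuclei. The sum of promoter regions (-0.22) came to -0.13 with all regions within 10000 bases. Signs turned for Egr2 in AT2-like nuclei without the mitochondrial limit (0.69) or with a filter on UMIs alone (0.81), for Klf4 (0.083), Nr4a1 (0.90) and Nr4a2 (2.16) in cluster 0 alone, and for Nr4a1 (0.63), Nr4a2 (1.46) and Nr4a3 (0.58) in alveolar nuclei without clusters 2 and 3. Under a limit of 5% they turned for Ier5 in alveolar nuclei (0.079) and for Nr4a1 (0.40), Klf4 (0.13), Nr4a2 (-1.05) and the sum without Klf6 (0.12) in transitional-like nuclei, where Nr4a2 was also below 0 without the limit (-0.17) and with a filter on UMIs alone (-0.43). The transitional-like cluster under the 5% limit had 0 transitional markers among its 10 leading genes and may mix lineages. Klf6 was below 0 in 2 of 15 alternatives in alveolar nuclei, down to -0.35, with scaling in AT2-like nuclei (-0.18) and in 5 of 12 in transitional-like nuclei. There Nr4a3 was below 0 in 6 of 12 (-0.93 to 2.98) and Ier5 in 8 of 12 (-0.33 to 0.62). Egr2 was below 0 in 11 of 15 in alveolar nuclei, up to 1.10. Ier2 came to -0.34 in alveolar nuclei without clusters 2 and 3. The cause was not tested. Genes past 2-fold lower numbered 426 in all with at least 20 UMIs, 2350 with at least 1 and 173 with at least 100. Depth limits Egr2 in every alveolar class and all members among the 105 Control nuclei of cluster 0.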
